A study of Mus musculus with 30 samples.

Results

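The 8 genes described here encode transcription factors that specify the testis or hold Sertoli cell identity, the supporting cell of the testis cord. They were taken by symbol as a fixed list (Sox9, Sox8, Sox10, Dmrt1, Nr0b1, Nr5a1, Gata4 and Wt1), and all 8 were found among the 49315 genes counted. RNA was sequenced from C57BL/6 mouse fetal testes that were dissected free of the mesonephros on gestational day 14 and cultured for 24 h. Treatment was with 100 µM MEHP in 6 libraries, with 1 µM ATRA in 5, with both agents together at those doses in 4 (MEHP + ATRA), and with DMSO vehicle only in 15. The treated cultures received DMSO at the same dilution. MEHP, mono-(2-ethylhexyl) phthalate, is the active monoester of a common plasticizer, and ATRA, all-trans retinoic acid, is the vitamin A derivative that activates the retinoic acid receptors. Sample titles carry a second number of unstated meaning, which was below 500 in 9 vehicle libraries (lower range) and above 500 in 6 (upper range). All MEHP libraries lay in the upper range and all ATRA and MEHP + ATRA libraries in the lower one, so each treatment is set beside the vehicle libraries of its own range. The labels do not say whether libraries came from separate fetuses or litters or whether testes were pooled, so the spread behind every p-value is that between libraries and may be technical.

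In the mouse XY gonad, SRY acts with NR5A1 to switch on Sox9, and SOX9 then directs Sertoli cell differentiation and keeps its own expression high. SOX8 and SOX10 belong to the same SoxE group and can stand in for part of its function. WT1 and GATA4 act upstream, in the early gonad as well as in Sertoli cells. NR0B1 (DAX1) is an orphan nuclear receptor that binds NR5A1 and represses its activity, and DMRT1 holds Sertoli cells against conversion to ovarian granulosa cells later in life. Several members are also transcribed elsewhere in the fetal testis: Nr5a1 and Nr0b1 in Leydig cells, Dmrt1 in germ cells, Gata4 in the interstitium and Wt1 in the surface epithelium. The bulk samples cannot tell fewer cells of a type from less RNA per cell.

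Libraries held 17551454 to 29306917 counts. Raw counts of single members ran between 138 (Sox10) and 15161 (Gata4) per library, so all 8 passed the filter on low counts. Markers of Sertoli, Leydig and germ cells were above 0 in every group, and no marker of the 10 cell types checked stood at 0 in all libraries of a group. The 4 mesonephros markers summed to 4.83 to 15.1 CPM (counts scaled to a common library size), against 1323 to 2674 CPM for the 7 Sertoli cell markers. No pair of libraries of 1 group was as close as counting noise alone would make it. Vehicle replicate 11 and MEHP + ATRA replicate 1 were high in several members at once, and counts of members that passed the test are given with and without them.

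With MEHP, 2 of the 8 genes rose (Sox9 and Nr0b1) and 0 fell, where 4.72% of all 19323 genes tested changed (2.88% higher, 1.84% lower). With ATRA, 5 rose (Sox9, Sox10, Dmrt1, Nr0b1 and Wt1) and 0 fell, where 18.1% of all genes changed (9.06% higher, 9.03% lower). With MEHP + ATRA, 6 rose, the same 5 and Sox8, and 0 fell, where 29% of all genes changed (14.3% higher, 14.7% lower). The median log2 fold change of the 8 genes was 0.26 under MEHP, 0.62 under ATRA and 0.72 under MEHP + ATRA. Over all genes these medians were -0.01, 0.00 and -0.01. Nr5a1 and Gata4 did not pass the test under any treatment. A gene is called changed at an adjusted p below 0.05 in edgeR's quasi-likelihood test, adjusted over all genes by Benjamini-Hochberg. Without the 2 libraries named above, the counts were 3, 7 and 5 genes, and 1 of the 7 with ATRA was lower (Gata4). Over all genes, 1003, 3586 and 4924 changed in that fit, against 912, 3494 and 5595 in the main one. The MEHP count was 5 with no range term, where 2229 genes changed, and 1 with only upper-range libraries fitted, where 439 changed.

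**Figure D1:**
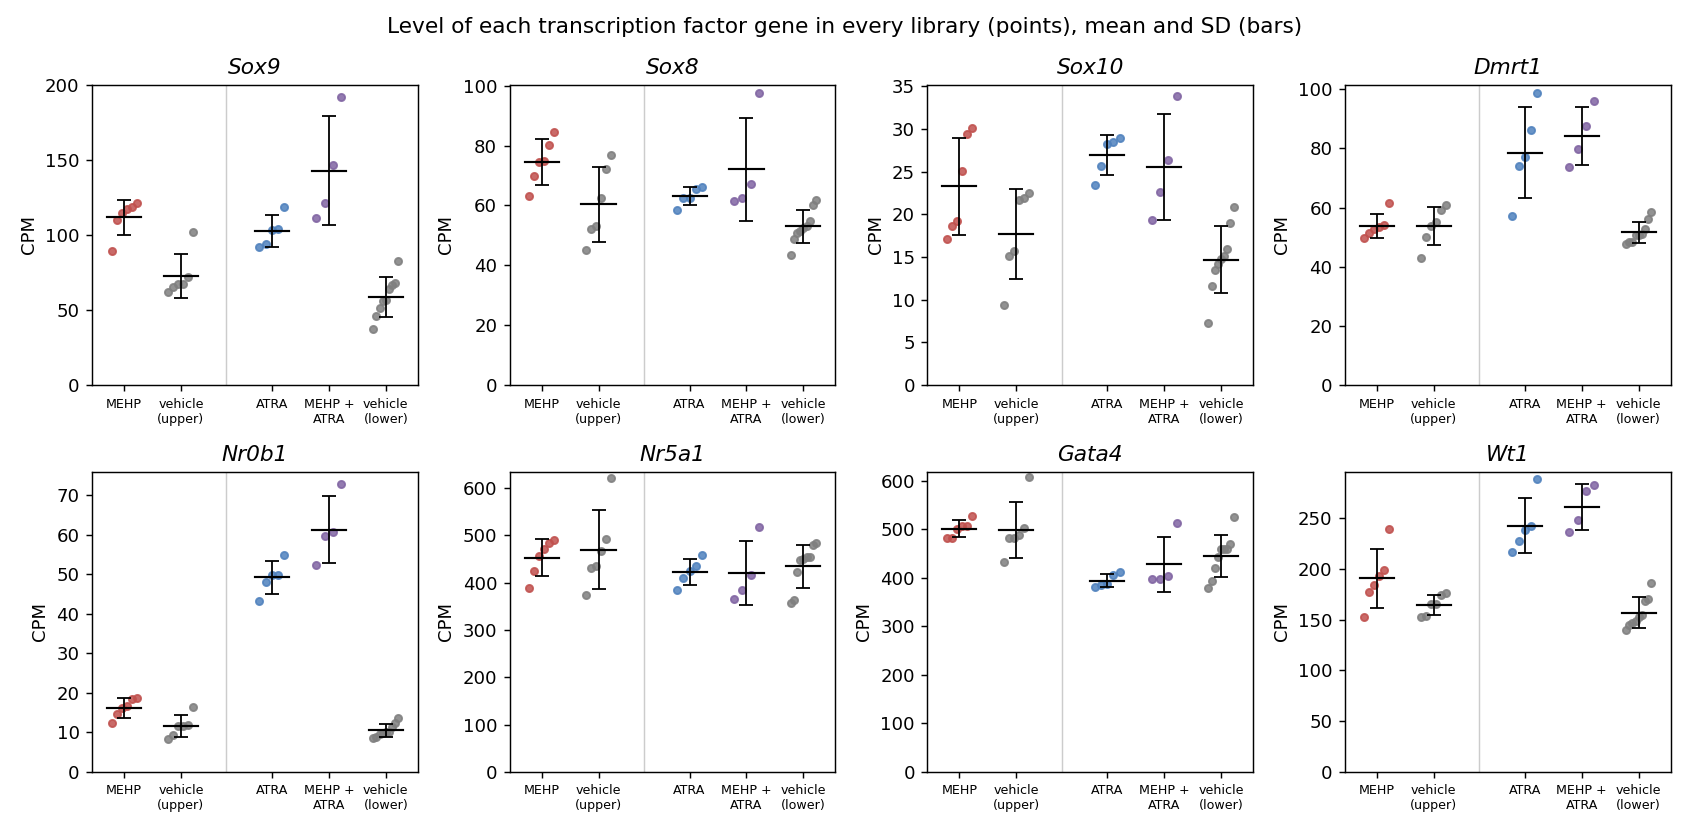
Level of each of the 8 genes in CPM (vertical axis, linear from 0) in MEHP and upper-range vehicle libraries (left of the grey line) and in ATRA, MEHP + ATRA and lower-range vehicle libraries (right of it); points are libraries, bars the mean and SD. Nr0b1 sits at 43.3 to 72.7 CPM in all 9 libraries with ATRA, above every other library, while Nr5a1 overlaps between treated and vehicle libraries throughout.

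The widest response was that of Nr0b1, the NR5A1 corepressor gene (ENSMUSG00000025056, chromosome X, 86191764 to 86195947, plus strand). RefSeq promoter windows were matched for 2 of the 8 genes, Nr0b1 and Sox8. The 250 bases before each RefSeq start are shown because these genes stand at the 2 ends of the response to ATRA among the members that rose in any comparison. The RefSeq start of Nr0b1 lies downstream of the start given above, so the end of its window lies inside the gene as counted. Capitals mark the only match to the 5 motifs searched, on both strands. The first motif was AGGTCA, the half-site bound by many nuclear receptors. An extended half-site of the NR5A1 type, CAAGGTCA, contains it. The third was a direct repeat of the half-site with 5 bases between its copies, as retinoic acid receptors bind. A SOX-type motif, AACAAT, came next. The last was the GATA-type motif TGATAA. Both sequences are 5′ to 3′ in the direction of transcription (GRCm38.p6), from chrX:86191525-86191774 on the plus strand and chr17:25570687-25570936 on the minus strand.
Nr0b1: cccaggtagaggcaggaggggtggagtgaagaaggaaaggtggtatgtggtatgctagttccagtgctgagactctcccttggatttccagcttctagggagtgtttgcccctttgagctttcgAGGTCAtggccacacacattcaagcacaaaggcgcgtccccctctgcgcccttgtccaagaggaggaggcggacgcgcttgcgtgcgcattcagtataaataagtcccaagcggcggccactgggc
Sox8: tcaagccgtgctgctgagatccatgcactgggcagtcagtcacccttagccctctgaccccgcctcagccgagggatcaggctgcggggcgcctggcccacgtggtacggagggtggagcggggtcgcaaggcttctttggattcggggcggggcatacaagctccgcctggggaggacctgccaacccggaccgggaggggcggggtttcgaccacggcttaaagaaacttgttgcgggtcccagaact
The Nr0b1 window held 1 AGGTCA, on the plus strand with its first base at position -126 from the RefSeq start, and none of the other motifs. The Sox8 window held none of the 5. Of 32851 RefSeq windows of this length, 14.02% held AGGTCA, 1.33% CAAGGTCA, 0.009% the direct repeat, 9.42% AACAAT and 7.94% TGATAA. A match describes the letters of the window and is not a binding site.

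Nr0b1 stood at 43.3, 49.9, 48.1, 54.8 and 49.9 CPM in the 5 ATRA libraries and at 72.7, 52.2, 59.6 and 60.6 CPM in the 4 MEHP + ATRA libraries. The 9 lower-range vehicle libraries ran between 8.48 and 13.7 CPM, with a median of 9.98 CPM. Every library with ATRA was thus well clear of every vehicle library. The gene rose 4.68-fold with ATRA (log2 fold change 2.23 ± 0.12, SE, adjusted p = 3.66e-15, edgeR) and 5.84-fold with MEHP + ATRA (2.54 ± 0.12, adjusted p = 2.41e-16, edgeR). With MEHP alone it ranged between 12.3 and 18.7 CPM (median 16.4 CPM), against 8.23 to 16.5 CPM (median 11.5 CPM) in upper-range vehicle libraries, and these ranges overlapped. The rise with MEHP was 1.40-fold (0.48 ± 0.13, adjusted p = 0.0277, edgeR). This call was lost with only upper-range libraries fitted (adjusted p = 0.1325) and when single libraries were left out (MEHP replicates 1, 3 or 6, or vehicle replicates 4, 10 or 14) (adjusted p up to 0.0873).

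Sox9, the gene that drives Sertoli cell differentiation (ENSMUSG00000000567, chromosome 11, 112782224 to 112787760, plus strand), rose under all 3 treatments. The 6 MEHP libraries held 89.5 to 121 CPM, with a median of 116 CPM. Upper-range vehicle libraries held 62.4 to 102 CPM, with a median of 67.5 CPM. In the MEHP group 5 of 6 libraries lay above all 6 vehicle libraries, and the vehicle maximum was replicate 11, with the next at 72.3 CPM. The rise was 1.54-fold (0.62 ± 0.15, adjusted p = 0.0084, edgeR). With ATRA, Sox9 stood at 94.4, 104, 119, 104 and 92.3 CPM, and with MEHP + ATRA at 193, 147, 111 and 121 CPM. Lower-range vehicle libraries held 37.1 to 82.7 CPM (median 56.7 CPM). Neither set of treated libraries overlapped with vehicle, and the fold changes were 1.75 with ATRA (0.81 ± 0.14, adjusted p = 5.14e-05, edgeR) and 2.43 with MEHP + ATRA (1.28 ± 0.14, adjusted p = 2.56e-08, edgeR).

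Sox8 and Sox10, the other SoxE genes, moved less evenly. Sox8 (ENSMUSG00000024176, chromosome 17, 25565892 to 25570686, minus strand) stood at 97.6, 62.4, 61.4 and 67.1 CPM with MEHP + ATRA. In the lower-range vehicle it ran between 43.6 and 61.7 CPM, with a median of 52.6 CPM. The ranges touched, since the lowest co-exposed library fell just below the highest vehicle library. The gene rose 1.36-fold with MEHP + ATRA (0.44 ± 0.11, adjusted p = 0.0031, edgeR), a call lost without MEHP + ATRA replicate 1 (adjusted p = 0.0695) and without it and vehicle replicate 11 (adjusted p = 0.0616). With MEHP it held 63.0 to 84.5 CPM (median 74.8 CPM), beside 45.0 to 77.0 CPM (median 58.0 CPM) in upper-range vehicle libraries, and did not pass (0.30 ± 0.11, adjusted p = 0.139, edgeR). It did pass without vehicle replicate 3 (adjusted p = 0.035), without vehicle replicate 11 and MEHP + ATRA replicate 1 together (adjusted p = 0.0227) and with no range term (adjusted p = 0.00342). With ATRA it stood at 66.1, 62.5, 62.5, 65.6 and 58.6 CPM, and its log2 difference of 0.25 ± 0.11 did not pass either (adjusted p = 0.113, edgeR). It passed with ATRA under limma-voom with sample weights (adjusted p = 0.0168) and without vehicle replicate 11 and MEHP + ATRA replicate 1 together (adjusted p = 0.0494).

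Sox10, best known from neural crest and Schwann cells but also a Sertoli cell gene of the fetal mouse testis (ENSMUSG00000033006, chromosome 15, 79154913 to 79164490, minus strand), had the fewest reads of any member in a single library (138), although Nr0b1 averaged fewer CPM in the MEHP and both vehicle groups. ATRA libraries held 28.4, 28.3, 29.0, 25.7 and 23.4 CPM and MEHP + ATRA libraries 33.8, 26.3, 22.6 and 19.3 CPM. Lower-range vehicle libraries held 7.28 to 20.8 CPM, with a median of 14.7 CPM. The ATRA libraries lay above all of these, whereas 1 co-exposed library overlapped. The rises were 1.84-fold with ATRA (0.88 ± 0.19, adjusted p = 0.000761, edgeR) and 1.74-fold with MEHP + ATRA (0.80 ± 0.20, adjusted p = 0.00243, edgeR). MEHP libraries held 17.1 to 30.1 CPM (median 22.2 CPM) and upper-range vehicle libraries 9.32 to 22.5 CPM (median 18.7 CPM), a log2 difference of 0.39 ± 0.20 that did not pass (adjusted p = 0.361, edgeR). Of 8 Schwann and neural crest markers, 3 were higher and 1 lower with ATRA and 2 were higher and 1 lower with MEHP + ATRA. The neural crest factor gene Foxd3 was the one that fell in both. The 8 markers summed to 296 to 371 CPM with ATRA, 319 to 482 CPM with MEHP + ATRA and 226 to 303 CPM in lower-range vehicle libraries, mostly from Ngfr. Their part in the Sox10 result was not tested.

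Dmrt1 (ENSMUSG00000024837, chromosome 19, 25505618 to 25604329, plus strand) responded in the cultures that received ATRA. It stood at 57.1, 86.1, 98.7, 77.0 and 74.0 CPM with ATRA and at 87.5, 95.9, 73.7 and 79.6 CPM with MEHP + ATRA, beside 47.7 to 58.5 CPM (median 50.9 CPM) in lower-range vehicle libraries. ATRA replicate 1 fell inside the vehicle range and the other libraries with ATRA lay above it. The rise was 1.52-fold with ATRA (0.61 ± 0.09, adjusted p = 4.02e-06, edgeR) and 1.63-fold with MEHP + ATRA (0.71 ± 0.09, adjusted p = 4.74e-07, edgeR). With MEHP alone, Dmrt1 held 49.6 to 61.5 CPM and upper-range vehicle libraries 43.1 to 60.7 CPM. That log2 difference was 0.01 ± 0.09, with a 95% interval of -0.19 to 0.20. Of 8 germ cell markers, 0 were higher or lower with ATRA, and 1 was higher (Sall4) and 2 lower (Utf1 and Dnd1) with MEHP + ATRA. Sall4 stood at 55.7 to 103 CPM with MEHP + ATRA, above the 35.1 to 51.5 CPM of every lower-range vehicle library. The 8 markers summed to 731 to 911 CPM with ATRA, 573 to 832 CPM with MEHP + ATRA and 625.1 to 1002 CPM in lower-range vehicle libraries. Their part in the Dmrt1 result was not tested.

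Wt1, the zinc finger gene needed for the early gonad and for Sertoli identity (ENSMUSG00000016458, chromosome 2, 105126529 to 105173616, plus strand), moved much like Dmrt1 under ATRA. Its levels were 238, 217, 289, 243 and 228 CPM with ATRA and 277, 283, 236 and 248 CPM with MEHP + ATRA. Lower-range vehicle libraries held 140 to 187 CPM, with a median of 153 CPM. All 9 libraries with ATRA lay above all 9 vehicle libraries. Wt1 rose 1.55-fold with ATRA (0.63 ± 0.08, adjusted p = 3.58e-07, edgeR) and 1.66-fold with MEHP + ATRA (0.73 ± 0.08, adjusted p = 3.23e-08, edgeR). With MEHP, the libraries held 152 to 239 CPM and upper-range vehicle 152 to 177 CPM, and 5 of 6 treated libraries exceeded the vehicle maximum, but the log2 difference of 0.21 ± 0.08 did not pass (adjusted p = 0.172, edgeR). It passed without MEHP replicate 2, the lowest library (adjusted p = 0.0444). Of 6 surface epithelium markers, 1 (Krt19) was higher and 0 lower with ATRA and with MEHP + ATRA. Their sums were 70.1 to 182 CPM with ATRA, 100.4 to 174 CPM with MEHP + ATRA and 60.1 to 154 CPM in lower-range vehicle libraries, and their part in the Wt1 result was not tested.

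Nr5a1, the steroidogenic factor 1 gene (ENSMUSG00000026751, chromosome 2, 38692656 to 38714542, minus strand), had overlapping levels in every comparison. MEHP libraries held 388 to 490 CPM and upper-range vehicle libraries 374 to 622 CPM. ATRA libraries held 409.5, 459, 384, 436 and 425 CPM, MEHP + ATRA libraries 518, 365, 416 and 385 CPM, and lower-range vehicle libraries 358 to 484 CPM. The log2 differences were -0.06 with MEHP (95% interval -0.25 to 0.14), -0.04 with ATRA (-0.23 to 0.15) and -0.05 with MEHP + ATRA (-0.25 to 0.16). Of 6 Leydig cell markers, which mark the other cells that transcribe Nr5a1, 0 changed with MEHP and 1 (Star) was higher with ATRA and with MEHP + ATRA.

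Gata4, the zinc finger gene that acts with its cofactor ZFPM2 on Sry and Amh (ENSMUSG00000021944, chromosome 14, 63198922 to 63271692, minus strand), differed little between groups. It stood at 411.9, 384, 388, 405 and 382 CPM with ATRA and at 512, 403, 398 and 398 CPM with MEHP + ATRA, beside 380 to 525.6 CPM (median 459 CPM) in lower-range vehicle libraries. The ATRA libraries lay at the low end of the vehicle range but inside it. The log2 difference with ATRA was -0.18 ± 0.07 and did not pass (adjusted p = 0.0812, edgeR). It passed under limma-voom with sample weights (adjusted p = 0.0081), with no range term (adjusted p = 0.0115) and with a block on the first title number (adjusted p = 0.0173). It also passed without any one of vehicle replicates 1, 11 and 12 and MEHP + ATRA replicate 1 (adjusted p down to 0.0358), and without the last of these and vehicle replicate 11 together (adjusted p = 0.0163). MEHP libraries held 482 to 528 CPM and upper-range vehicle libraries 433 to 607 CPM, a difference of 0.01 ± 0.07. Of 6 interstitial progenitor markers, 0 were higher and 5 lower with ATRA and with MEHP + ATRA. Their sums were 2992 to 3670 CPM with ATRA, 2974 to 3302 CPM with MEHP + ATRA and 4632 to 5077 CPM in lower-range vehicle libraries, and their part in the results on Gata4 and on the members that rose was not tested.

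**Figure D2:**
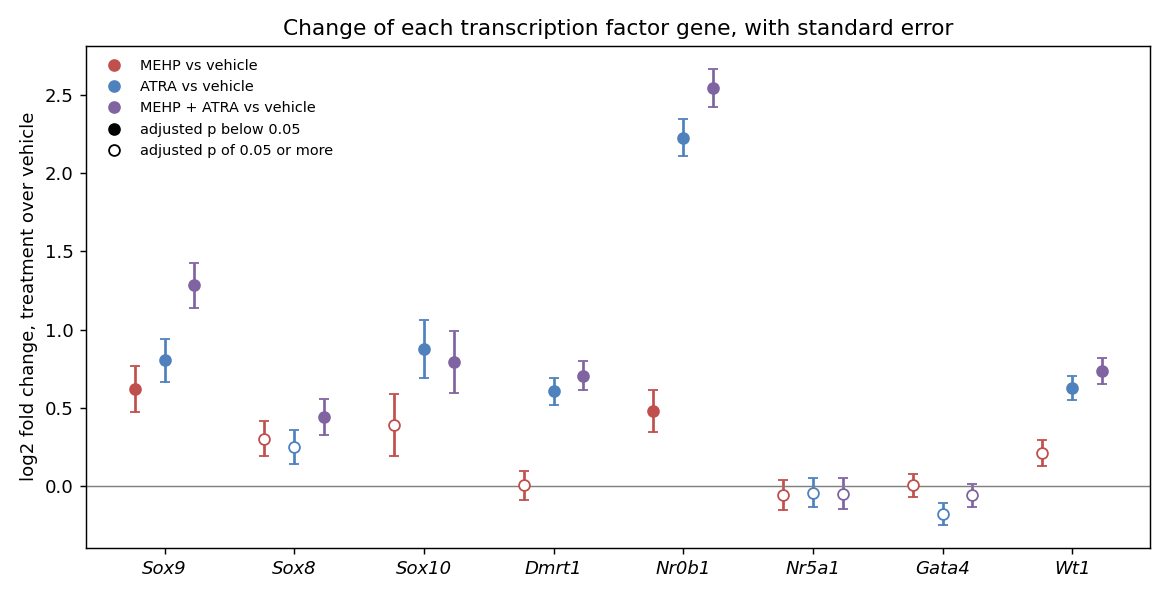
Log2 fold change of each gene over vehicle (vertical axis) with its standard error, for MEHP, ATRA and MEHP + ATRA; filled points have an adjusted p below 0.05. Nr0b1 reaches 2.23 with ATRA and 2.54 with MEHP + ATRA, the other filled points lie between 0.44 and 1.28, and all 3 points of Nr5a1 lie near 0.

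The design also asked whether one compound altered the response to the other. Adding MEHP to ATRA changed 0 of the 8 genes (edgeR), where 3% of all genes changed (1.62% higher, 1.38% lower). At an unadjusted p below 0.05 there were 2, Sox9 (0.48 ± 0.17, 95% interval 0.14 to 0.82) and Nr0b1 (0.32 ± 0.14, 0.04 to 0.60). Of all 19323 genes tested, 2576 had an unadjusted p below 0.05 in this comparison. DESeq2 also called 0, while limma-voom with sample weights called 1 (Nr0b1, adjusted p = 0.0496) and a block on the first title number called 1 (Sox9, adjusted p = 0.00634). Adding ATRA to MEHP changed 4 of 8, where 8.29% of all genes changed (4.06% higher, 4.23% lower). Nr0b1 (2.06 ± 0.18), Dmrt1 (0.70 ± 0.13), Sox9 (0.66 ± 0.21) and Wt1 (0.52 ± 0.12) were higher in MEHP + ATRA than in MEHP. That contrast spans both ranges and rests on the range term. The Sox9 call in it had an adjusted p of 0.0427 and was lost under limma-voom (adjusted p = 0.0766), with no range term (adjusted p = 0.174) and without the 2 libraries that stood apart (adjusted p = 0.30). It was also lost when single libraries were left out (MEHP + ATRA replicates 1 or 2, MEHP replicates 2, 5 or 6, or vehicle replicates 2, 7, 8 or 11, adjusted p up to 0.169).

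The interaction is the log2 effect of MEHP on top of ATRA less its effect alone, and its 95% interval held 0 for each member. It was called for 0 of 8 genes by edgeR, DESeq2 or limma-voom, where edgeR called 0.0311% of all genes (0.0104% higher, 0.0207% lower). An unadjusted p below 0.05 was found for 0 members, and for 827 of all 19323 genes tested. The estimates ran between -0.47 ± 0.30 for Sox10 and 0.11 ± 0.11 for Gata4. For Sox9 the value was -0.14 ± 0.22 and for Nr0b1 -0.16 ± 0.19. Between the upper-range and lower-range vehicle libraries 0 of 8 members were called by edgeR, DESeq2 or limma-voom. The share of all genes called there by edgeR was 0.373% (0.254% higher, 0.119% lower). At an unadjusted p below 0.05 there were 2 members, and 2607 of all 19323 genes tested. All 8 estimates were above 0 in the upper range, from 0.06 ± 0.08 for Dmrt1 to 0.31 ± 0.13 for Sox9.

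Levels of different genes can be set side by side per kilobase of exon (RPKM, CPM divided by exon length). With ATRA the order was Gata4 (101 ± 3.4 RPKM, SD, n = 5), Nr5a1 (99.7 ± 6.6), Wt1 (39.2 ± 4.4), Dmrt1 (30.3 ± 5.9), Nr0b1 (27.2 ± 2.3), Sox9 (24.8 ± 2.6), Sox8 (20.2 ± 0.97) and Sox10 (9.93 ± 0.87). Neighbours overlapped between Gata4 and Nr5a1 and along the run Wt1, Dmrt1, Nr0b1 and Sox9. With MEHP + ATRA, Wt1 (42.2 ± 3.6 RPKM, SD, n = 4), Sox9 (34.6 ± 8.8), Nr0b1 (33.9 ± 4.7), Dmrt1 (32.4 ± 3.7) and Sox8 (23.1 ± 5.5) each overlapped with the next. In lower-range vehicle libraries the order was Gata4 (114 ± 11 RPKM, SD, n = 9), Nr5a1 (103 ± 11), Wt1 (25.3 ± 2.4), Dmrt1 (19.9 ± 1.4), Sox8 (17.0 ± 1.8), Sox9 (14.2 ± 3.3), Nr0b1 (5.79 ± 0.96) and Sox10 (5.41 ± 1.5). There neighbours overlapped between Gata4 and Nr5a1, along Dmrt1, Sox8 and Sox9, and between Nr0b1 and Sox10. Nr0b1 thus stood beside Sox10 in vehicle and beside Dmrt1 and Sox9 with ATRA. In the MEHP libraries Sox9 averaged 27.1 ± 2.8 RPKM and in upper-range vehicle libraries 17.6 ± 3.6 RPKM (SD, n = 6 each), which placed it above Sox8 (23.9 ± 2.4) with MEHP and below it (19.4 ± 4.0) in vehicle. Sox8 and Sox9 overlapped in both.

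Ratios of RPKM within a library do not depend on library scaling, and 3 were tested for each treatment with exact two-sided permutation tests, adjusted over the 9 tests. The permutations took the libraries compared as exchangeable and left out the first title number. These ratios were chosen with earlier results of these data known, so their p-values are no support separate from the gene tests. The log2 ratio of Sox9 to Amh, the anti-Müllerian hormone gene that SOX9 activates, averaged -4.07 ± 0.29 with MEHP and -5.34 ± 0.11 in upper-range vehicle (SD, n = 6 each). It averaged -4.01 ± 0.21 with ATRA (n = 5), -3.04 ± 0.16 with MEHP + ATRA (n = 4) and -5.45 ± 0.13 in lower-range vehicle (n = 9). No treated library overlapped with a vehicle library of its range. The differences were 1.26 (adjusted p = 0.0036, exact permutation test), 1.44 (adjusted p = 0.0030, exact permutation test) and 2.41 (adjusted p = 0.0036, exact permutation test). The smallest p that each of these designs allows, from 924, 2002 and 715 regroupings, was reached. Sox9 rose and Amh fell in the gene test under all 3 treatments, Amh by 0.63, 0.61 and 1.11 on the log2 scale. Amh held 623 to 1066 CPM with MEHP and 921 to 1601 CPM in upper-range vehicle libraries. It held 499 to 766 CPM with ATRA, 400 to 641 CPM with MEHP + ATRA and 688 to 1237 CPM in lower-range vehicle libraries.

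The share of Sox8 in the summed RPKM of the SoxE genes was 36.8% ± 2.0 with ATRA (SD, n = 5), 34.6% ± 2.8 with MEHP + ATRA (n = 4) and 46.9% ± 4.1 in lower-range vehicle (n = 9). It was lower by 10.1 percentage points with ATRA (adjusted p = 0.0030, exact permutation test) and by 12.4 points with MEHP + ATRA (adjusted p = 0.0036, exact permutation test), with no overlap between treated and vehicle libraries. Sox8 itself did not fall. Its mean was 63.1 CPM with ATRA and 72.1 CPM with MEHP + ATRA, against 53.0 CPM in lower-range vehicle, and Sox9 and Sox10 rose by more. With MEHP the share was 40.2% ± 2.1, against 44.4% ± 5.1 in upper-range vehicle (SD, n = 6 each), with overlap. That difference had an adjusted p of 0.0498 (exact permutation test), and it missed the threshold when MEHP replicates 1, 2, 3, 5 or 6 or vehicle replicates 3, 10 or 14 were left out singly (adjusted p up to 0.0996). The log2 ratio of Nr0b1 to Nr5a1, the repressor gene to that of its partner, averaged -1.87 ± 0.11 with ATRA (n = 5), -1.55 ± 0.07 with MEHP + ATRA (n = 4) and -4.16 ± 0.23 in lower-range vehicle (SD, n = 9). It averaged -3.59 ± 0.27 with MEHP and -4.14 ± 0.29 in upper-range vehicle (n = 6 each), a difference of 0.55 (adjusted p = 0.0122, exact permutation test).

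**Figure D3:**
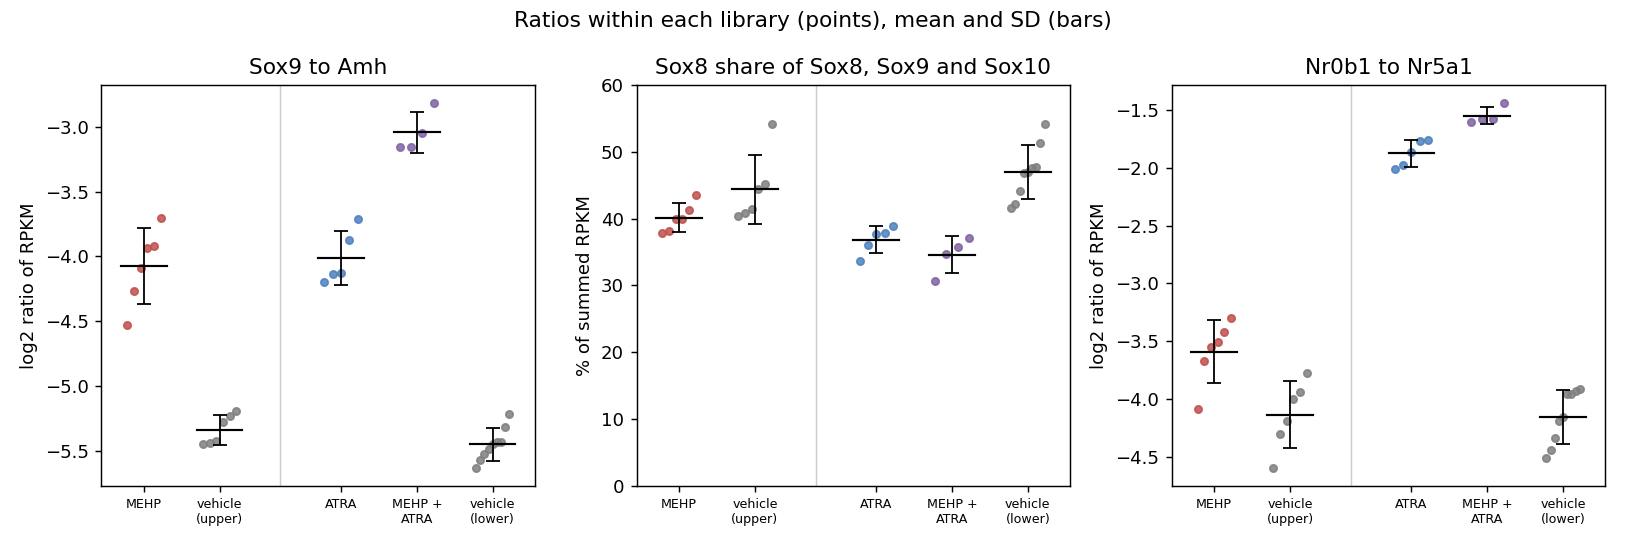
Log2 ratio of the RPKM of Sox9 to that of Amh (left), share of Sox8 in the summed RPKM of Sox8, Sox9 and Sox10 (middle, linear from 0) and log2 ratio of the RPKM of Nr0b1 to that of Nr5a1 (right) in each library, with mean and SD. The Sox9 to Amh ratio spans -5.63 to -5.20 over all vehicle libraries and -4.53 to -2.82 over all treated ones.

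Other genes of sex determination were read from 3 further lists. Their counts stand beside the shares of all genes called, 4.72% under MEHP, 18.1% under ATRA and 29% under MEHP + ATRA. Among 16 genes of the early gonad and testis determination, 15 were tested. Sry, the Y-linked switch gene, was left untested at 0 to 0.173 CPM. With MEHP 1 rose and 0 fell, with ATRA 4 rose and 2 fell, and with MEHP + ATRA 4 rose and 4 fell, with list medians of 0.04, 0.06 and -0.01 in log2. The 1 of 15 with MEHP is near the share of all genes. Fgf9, the growth factor gene that sustains Sox9, rose by 0.59 ± 0.16 with MEHP (adjusted p = 0.029, edgeR). Its level was 3.74 to 5.47 CPM with MEHP and 1.84 to 4.67 CPM in upper-range vehicle, and its call was lost with upper-range libraries alone (adjusted p = 0.188) and when MEHP replicates 1, 3 or 6 or vehicle replicates 3, 10 or 11 were left out singly (adjusted p up to 0.0771). With MEHP + ATRA it rose by 1.40 ± 0.15 (adjusted p = 1.63e-08, edgeR), and the 7.88 to 11.8 CPM there lay above the 2.80 to 3.95 CPM of lower-range vehicle. Fgf9 was also called higher with ATRA alone, where its 4.58 to 6.30 CPM lay above the same vehicle libraries. It was called higher with MEHP + ATRA than with ATRA and than with MEHP too. The GATA factor gene Gata6 rose by 1.03 ± 0.08 with ATRA and 1.12 ± 0.08 with MEHP + ATRA, while the Gata4 cofactor gene Zfpm2 rose by 0.30 ± 0.08 with ATRA. Zfpm2 was also called higher with MEHP + ATRA. Lhx9, a homeobox gene of the early gonad that acts on Nr5a1, fell by 0.66 on the log2 scale with ATRA and by 0.98 with MEHP + ATRA.

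Of 22 Sertoli cell products and targets of SOX9 or NR5A1, 5 rose and 4 fell with MEHP, 6 rose and 10 fell with ATRA, and 8 rose and 8 fell with MEHP + ATRA. The list medians were 0.04, -0.18 and -0.11. Hsd17b1, which encodes a 17β-hydroxysteroid dehydrogenase, fell by 1.09 on the log2 scale with MEHP, by 2.04 with ATRA and by 3.98 with MEHP + ATRA. Its level was 3.65 to 5.09 CPM with MEHP + ATRA and 51.5 to 85.8 CPM in lower-range vehicle. Hsd17b3, the testosterone-forming enzyme of the fetal Sertoli cell in mice, fell by 0.45 with MEHP and by 1.58 with MEHP + ATRA on the log2 scale. The Sertoli homeobox gene Rhox8 fell by 1.27 with MEHP. In the other direction, the cystatin gene Cst9 rose by 1.18 ± 0.11 with ATRA and 1.27 ± 0.12 with MEHP + ATRA, and the tight junction gene Cldn11 by 1.66 ± 0.16 with ATRA. Of 7 Sertoli cell markers, 2 were higher (Cst9 and Aard) and 2 lower (Amh and Hsd17b1) with MEHP. Under ATRA, and again under MEHP + ATRA, 4 were higher (Cst9, Cldn11, Aard and Dhh) and the same 2 lower. Their median log2 fold changes were 0.31, 0.38 and 0.51 under MEHP, ATRA and MEHP + ATRA. Amh made up much of their summed level, which overlapped between treated and vehicle libraries under each treatment: 1359 to 2110 CPM with MEHP and 1671 to 2674 CPM in upper-range vehicle, then 1557 to 1846 CPM with ATRA, 1362 to 1883 CPM with MEHP + ATRA and 1323 to 2041 CPM in lower-range vehicle.

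Among 13 genes of the ovarian pathway, which the testis factors oppose, 1 rose and 0 fell with MEHP, 4 rose and 0 fell with ATRA, and 6 rose and 1 fell with MEHP + ATRA (medians -0.08, 0.33 and 0.34). The 1 of 13 with MEHP is near the 4.72% of all genes called, and the shares of all genes with ATRA and MEHP + ATRA were 18.1% and 29%. Wnt4, the ligand gene that promotes ovarian fate, rose by 0.67 ± 0.08 under MEHP, 1.46 ± 0.08 under ATRA and 1.72 ± 0.08 under MEHP + ATRA. It reached 221 to 267 CPM with MEHP + ATRA, against 63.3 to 83.5 CPM in lower-range vehicle. Foxl2, the granulosa cell factor gene, rose by 2.23 ± 0.21 with ATRA and 2.17 ± 0.22 with MEHP + ATRA, but stayed at 11.3 to 13.7 CPM in those libraries. Runx1, which acts with Foxl2 in the fetal ovary, rose by 1.13 ± 0.15 and 1.64 ± 0.16. Sox9, of the testis side, and Wnt4 and Foxl2, of the ovarian side, were therefore higher in the same ATRA and MEHP + ATRA libraries. This covers the genes named and not the whole list, of which 4 of 13 were called with ATRA.

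**Figure D4:**
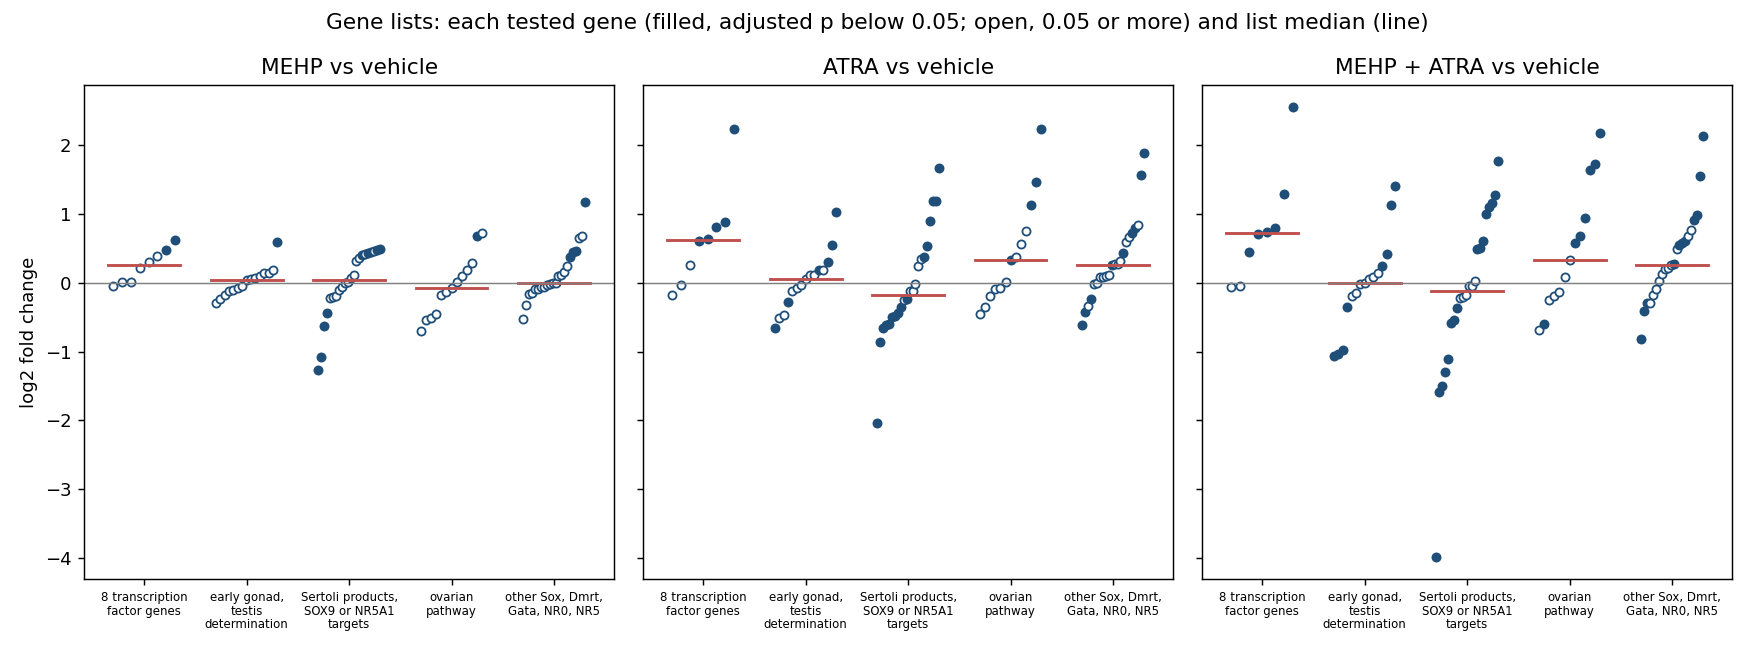
Log2 fold change over vehicle (vertical axis) of every tested gene of the 8 transcription factor genes and of 4 lists, for MEHP, ATRA and MEHP + ATRA; filled points have an adjusted p below 0.05 and red lines are list medians. The median of the 8 genes is 0.62 with ATRA and 0.72 with MEHP + ATRA, while Sertoli products spread in both directions, down to -3.98 for Hsd17b1.

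For each member called with any treatment, the genes nearest in pattern were sought among 13169 tested genes whose log2 CPM averaged 1 or more. The measure was the root mean square difference in mean log2 CPM, centred per gene, over the 5 groups (30 libraries). Nearest to Nr0b1 were Igfbp6 (0.11), Olfr1033 (0.13) and Fap (0.14), beside a root mean square of 1.07 for Nr0b1 itself. Igfbp6 had log2 fold changes of 0.44 under MEHP, 2.30 under ATRA and 2.58 under MEHP + ATRA. Nearest to Sox9 were Espn (0.05), Fam78a (0.08) and Elmo1 (0.08), and nearest to Sox8 were Wnt6 (0.02), Itga7 (0.03) and Pdpr (0.03). Sox10 had Mall (0.06), Bex2 (0.08) and Cdh23 (0.08), Dmrt1 had Lrrc8e (0.01), Filip1l (0.03) and Hs3st1 (0.03), and Wt1 had Shtn1 (0.02), Nacc2 (0.02) and Cygb (0.03). No member was among the 3 nearest genes of another. Only 3 of 13169 genes were kept for each, so this does not show that members moved differently.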

How the data were processed

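Deposited values are raw counts for each gene and library; the files have the featureCounts layout, per the file headers. The submitters' processing notes name bcl2fastq 2.20, Trimmomatic 0.36, STAR 2.5.2b, Subread 1.5.2 with featureCounts, and DESeq2. Build, annotation release and strand setting: not given in the sources used here. Symbols came from a separate list by gene identifier (99.3% matched). Coordinates are those of the files, which equal GENCODE M21 (GRCm38) for 91.36% of matched genes and for each member except Sox10. No member shares exon bases with another counted gene.

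The count test was edgeR 4.0.16 (R 4.3.3) with filterByExpr (minimum count 10), TMM scaling (factors 0.975 to 1.023), and 1 quasi-likelihood model over 30 libraries with group and range (25 residual degrees of freedom). Its steps were tested on simulated data. Levels are CPM, computed from the counts. SEs and intervals derive from the F statistic. Ratios used scipy 1.17.1. Alternatives used DESeq2 1.42.0 and limma 3.58.1. At depths of 17551454 to 29306917 counts, counting noise is largest relative to level for the low members, Sox10 and Nr0b1. The SE of Nr0b1 was nevertheless below that of Sox9 under each treatment. The members, lists, named-gene rule (the 8 members, the 3 called genes of smallest p per list and treatment, and the 3 nearest patterns) and tests were chosen with earlier results of these data known. Amh is named for its ratio.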

Additional observations from a re-analysis of the deposited data

Results flagged for a closer look

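In 55 groups of 4 to 9 values (8 genes and 3 ratios in 5 groups), 6 had 1 library far from the others by Dixon's test, where chance flags about 1 in 20 groups. Sox9 was lowest in MEHP replicate 2 at 89.5 CPM, with the next MEHP library at 110.5 CPM. It was highest in vehicle replicate 11, of the upper range, at 102 CPM, with the next at 72.3 CPM. MEHP + ATRA replicate 1 was highest for Sox8 at 97.6 CPM (next 67.1 CPM) and for Gata4 at 512 CPM (next 403 CPM). The Sox8 share of the SoxE genes was highest among upper-range vehicle libraries in replicate 3, at 54.1% (next 45.1%). The log2 ratio of Nr0b1 to Nr5a1 was highest among MEHP + ATRA libraries in replicate 4, at -1.44 (next -1.58).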

How the results depend on the processing

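The 8 genes and the other named genes were recomputed with RLE size factors, no filter on low counts, DESeq2, limma-voom with sample weights, no range term, only libraries of 1 range and a block on the first title number, without each library in turn and, an alternative chosen after seeing the data, without vehicle replicate 11 and MEHP + ATRA replicate 1 together. The ratios were recomputed from raw counts, against all 15 vehicle libraries and without each library in turn. Exon length drops out of a difference in log2 ratio, so raw counts could change the Sox8 share only. The count of members called with MEHP was 5 with no range term (2229 of all genes) and 1 with only upper-range libraries (439 of all genes). In these 2 fits and below the cause was not tested. It was 2 with RLE, no filter, DESeq2, limma-voom and the block, 3 without the 2 libraries, and 1 to 3 without single libraries. With ATRA it was 5 to 7 and with MEHP + ATRA 5 or 6 over all fits. Over all genes, 2914 to 5527 and 4613 to 7653 changed in those fits. For MEHP + ATRA against ATRA the count of members was 1 with limma-voom (1653 of all genes), 1 with the block (623) and 0 in every other fit. Without single libraries the Sox8 share differed by -5.04 to -2.30 points with MEHP. No other member call changed in these fits beyond those given with each gene above and, with no range term, the calls with MEHP of Sox8, Sox10 and Wt1. The block is an alternative because the meaning of the first title number is not stated. Deviations of same-numbered libraries correlated at -0.184 to 0.797 (29 pairs, median 0.151, 20 above 0.1). Those of differently numbered libraries had a median of -0.007 (108 pairs, 27 above 0.1). Same-numbered libraries were thus more alike at the median, though not in every pair, and the main fit and the ratio tests leave this out. With the block, 1227 genes changed with MEHP, against 912 without it. The block also called Sox9 for MEHP + ATRA against ATRA and Gata4 with ATRA, as given above.

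Estimates that turned direction had not passed the test in any of the fits. With MEHP they were Dmrt1 at -0.000137 (RLE) and -7.97e-05 (DESeq2), and Nr5a1 at 0.0108 (no range term) and 0.0415 (without the 2 libraries). For MEHP + ATRA against ATRA they were Sox10 at 0.137 (block) and Nr5a1 at 0.000771 (RLE), 0.0121 (no filter), 0.000728 (DESeq2), 0.0192 (block) and 0.00537 (lower range alone). For MEHP + ATRA against MEHP, Sox8 was -0.0468 with no range term and -0.0974 without the 2 libraries, and Nr5a1 was -0.0520 with limma-voom, -0.103 with no range term and -0.202 without the 2 libraries. The interaction turned for Sox9 (0.101, block), Wt1 (0.0159, block), Gata4 (-0.0445, without the 2 libraries) and Nr5a1 (-0.0153 with limma-voom, -0.0157 with no range term, -0.156 without the 2 libraries). Without single libraries, Dmrt1 ran between -0.0461 and 0.0457, Nr5a1 between -0.109 and 0.0444 and Gata4 between -0.0274 and 0.0732 with MEHP. Nr5a1 ran between -0.155 and 0.0220 with MEHP + ATRA. Against ATRA, Sox10 ran between -0.238 and 0.0395 and Nr5a1 between -0.111 and 0.0663. Against MEHP, Sox8 ran between -0.0361 and 0.216 and Nr5a1 between -0.102 and 0.0744. The Nr5a1 interaction ran between -0.0581 and 0.119, and Nr0b1 between the vehicle ranges between -0.00196 and 0.212.

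Counts over all genes moved by more than 1.5 times with no range term (MEHP 2229, MEHP + ATRA against MEHP 3181, against 912 and 1601), in 1 range alone (MEHP 439, MEHP + ATRA against ATRA 967, against 579), with limma-voom (ATRA 5527 against 3494, MEHP + ATRA against ATRA 1653) and without the 2 libraries (MEHP + ATRA against ATRA 372, and 340 without MEHP + ATRA replicate 1 only). The interaction count was 2 to 12 and the range count 4 to 338, against 6 and 72. Medians of all genes stayed within -0.019 and 0.015 in log2. Sox10 and Nr0b1 had the fewest reads, at 138 and 144 reads in their lowest libraries.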

Other observations

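Of 23 other Sox, Dmrt, Gata, NR0 and NR5 genes, 22 were tested: 4 rose and 0 fell with MEHP, 6 rose and 3 fell with ATRA, and 8 rose and 3 fell with MEHP + ATRA (edgeR), with list medians of 0.00, 0.26 and 0.26 in log2. Over all genes 4.72%, 18.1% and 29% changed, and most of the 22 did not pass under MEHP or ATRA. With MEHP the SoxF gene Sox7, known from endothelium, rose by 1.17 ± 0.27, the SoxD gene Sox6 by 0.45 ± 0.11 and Nr0b2 (SHP), the closest relative of Nr0b1, by 0.46 ± 0.11. Of 6 endothelial markers, 3 were higher with MEHP, and their sums were 264 to 485 CPM with MEHP and 236 to 417 CPM in upper-range vehicle libraries. The Nr0b2 call was lost with upper-range libraries alone (adjusted p = 0.0585, edgeR). The part of endothelial cells in the Sox7 result was not tested. Nr0b2 had a log2 difference of 0.08 ± 0.11 with ATRA (adjusted p = 0.688, edgeR), beside the 2.23 ± 0.12 of Nr0b1. With ATRA the SoxB1 gene Sox3 rose by 1.56 ± 0.23 and the DM-domain genes Dmrta2 and Dmrta1 by 0.79 ± 0.13 and 0.72 ± 0.13. Dmrta1 did not pass with MEHP + ATRA (0.12 ± 0.14, adjusted p = 0.588, edgeR) and was lower there than with ATRA (-0.61 ± 0.16, adjusted p = 0.0254, edgeR), at means of 4.97 CPM with MEHP + ATRA, 7.56 CPM with ATRA and 4.57 CPM in lower-range vehicle. With MEHP + ATRA, Dmrta2 rose by 0.98 ± 0.14, Sox3 by 1.54 ± 0.24 and the SoxD gene Sox13 by 0.60 ± 0.11. Sox13 was also called higher with MEHP and with ATRA. Sox6, Sox7 and Nr0b2 were also called higher with MEHP + ATRA, and Nr0b2 was higher there than with ATRA.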
